A study of Mus musculus with 11 samples.

Results

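In a single-cell library of sorted CD4+CD44+ lymph node cells, 182 of 13190 cells carried RNA of myeloid and dendritic cells and no UMI of the CD3 genes of the T cell receptor complex. They were selected on transcripts: at least 500 genes, under 10% mitochondrial unique molecular identifiers (UMIs, the counted molecules), at least 1 UMI each of Tyrobp and Cst3, and 0 UMIs of Cd3d, Cd3e, Cd3g, Cd79a and Ncr1. The gated cells were 1.38% of all cells (95% Clopper-Pearson interval 1.19 to 1.59%). They were divided by the same kind of values. A UMI of C1qb, encoding a chain of complement C1q, placed 58 cells in a C1qb-positive subset. A UMI of Siglech, encoding a surface lectin of plasmacytoid dendritic cells, placed 83 of the others in a Siglech-positive subset. Another 34 cells had Lyz2, the lysozyme of phagocytes, alone, and 7 had none of the 3 genes. All levels of the selecting genes, and all contrasts between subsets, describe this selection and are no test. The label holds for plasmacytoid dendritic cells, macrophages, monocytes and a few neutrophils. It was not settled for 19 of the Lyz2-only cells, whose gene counts name no cell type. Nor was it settled for the 7 cells with none of the 3 genes. Of these 7, 4 had 5 or more of 18 listed T cell genes. For conventional dendritic cells the picture was mixed: some defining genes were at or near 0 and other listed genes were not, as given below.

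The study compared follicular helper T (Tfh) and follicular regulatory T (Tfr) cells of mice and asked about Sostdc1, which encodes a secreted protein that blocks Wnt and BMP ligands. The single-cell library came from draining lymph nodes of C57BL/6 mice that carried the Sostdc1-EGFP reporter in heterozygous form. A pair of bulk RNA libraries, of CXCR5+PD1+GITRhi Tfr cells from the same tissue and strain, is used only in the last comparison: 1 library is labelled WT and 1 is labelled KO, with the genotype written as Sostdc1 homo. The labels used here give no age, no immunisation, no number of animals pooled, and no gate that removes myeloid cells. Each group had 1 library, so no difference below has a replicate check and no p-value is given. The intervals are exact, at 95%, and hold counting error alone, and cells of 1 library are not replicates.

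Plasmacytoid dendritic cells are round and resemble antibody-secreting cells in shape. They sense viral nucleic acids through endosomal Toll-like receptors and release type I interferon. Their identity depends on the E protein E2-2, encoded by Tcf4. Lymph node macrophages line the sinuses, take up particles and dying cells through scavenger receptors, and make complement C1q. Monocytes enter nodes from blood, with the chemokine receptor CCR2 and the surface protein Ly6C on the classical kind. Tyrobp encodes DAP12, an ITAM adaptor that carries the signal of many receptors of these cells, Siglec-H among them, and Cst3 encodes cystatin C, an inhibitor of cysteine proteases.

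Promoter windows of the genes that divide the gate are shown because the subsets rest on them. They are from RefSeq on GRCm38.p6 and run from 250 bases before to 50 after the annotated start, on the strand of the gene. Capitals mark GAGGAA, a form of the site bound by the ETS factor PU.1, and CAGGTG, an E-box, each read on both strands. C1qb and Siglech hold both motifs, and the Lyz2 window holds neither of these exact strings. Shorter runs of GGAA, the part shared by ETS sites, are not marked, and the Lyz2 window holds some. C1qb lies at chr4:136886151-136886450 on the minus strand, Siglech at chr7:55767934-55768233 on the plus strand and Lyz2 at chr10:117282223-117282522 on the minus strand.
C1qb: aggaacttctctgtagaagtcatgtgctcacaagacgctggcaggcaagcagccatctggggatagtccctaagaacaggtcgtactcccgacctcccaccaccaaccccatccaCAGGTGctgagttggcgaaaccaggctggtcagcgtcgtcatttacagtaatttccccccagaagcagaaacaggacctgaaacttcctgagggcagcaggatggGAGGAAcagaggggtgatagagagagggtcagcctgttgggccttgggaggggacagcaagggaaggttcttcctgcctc
Siglech: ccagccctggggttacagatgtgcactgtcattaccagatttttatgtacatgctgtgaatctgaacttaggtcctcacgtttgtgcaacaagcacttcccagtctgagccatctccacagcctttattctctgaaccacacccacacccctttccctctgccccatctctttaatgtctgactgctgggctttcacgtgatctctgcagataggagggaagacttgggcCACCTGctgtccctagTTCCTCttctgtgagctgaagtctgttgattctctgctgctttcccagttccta
Lyz2: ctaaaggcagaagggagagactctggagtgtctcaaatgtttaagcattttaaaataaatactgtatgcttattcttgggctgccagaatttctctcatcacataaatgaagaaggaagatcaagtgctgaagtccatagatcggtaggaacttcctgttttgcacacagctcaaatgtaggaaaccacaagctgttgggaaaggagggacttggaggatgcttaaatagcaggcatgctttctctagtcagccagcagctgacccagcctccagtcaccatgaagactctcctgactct
GAGGAA was in 28.3% of 32851 RefSeq windows of this length and CAGGTG in 20.2%. A match is a run of letters and does not show that a factor binds. Of the factors, Spi1 (PU.1) had 542 CPM (UMIs of a gene scaled to all UMIs of the summed cells) in C1qb-positive, 733 in Lyz2-only and 72 in Siglech-positive cells, and Tcf4 had 81, 53 and 1818 CPM in the same order.

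The gate is a narrow selection. Of 714 cells with Tyrobp and Cst3, 532 also had an excluded gene, Cd3d in 404, Cd3g in 395, Cd3e in 336, Cd79a in 120 and Ncr1, of natural killer cells, in 17. Just outside stood 90 cells with 1 UMI of the excluded genes, and 81 of them had at least 1 of Siglech, C1qb and Lyz2. Just inside, 29 cells had a single Cst3 UMI and 5 a single Tyrobp UMI. A further 47 cells had Tyrobp without Cst3 and no excluded gene, 40 of them with Lyz2, at a median of 1873 UMIs. The gate held 42.3% of all Siglech UMIs, 45.2% of C1qb UMIs and 36.6% of Lyz2 UMIs of the library.

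Cells rich in the subset genes were found on both sides of the gate. Of 202 cells with at least 3 Siglech UMIs, 86 were gated and 116 were not. Those outside with 1 excluded UMI (49 cells) had a median of 15 plasmacytoid genes and 2 of the 18 listed T cell genes, as did the gated ones. Those outside with 2 or more excluded UMIs (65 cells) had 16 plasmacytoid genes and 11 T cell genes, with a median of 12544 UMIs against 8742.5 in the gate. The other 2 had no excluded gene and lacked Tyrobp or Cst3, as did 10 of the C1qb-rich cells below. The same held for at least 3 UMIs of C1qb: 44 of 114 cells were gated, and the median number of T cell genes was 1 in the gate, 2 with 1 excluded UMI and 12 with 2 or more, beside 10, 11 and 10 macrophage genes. Since the classes were split by UMIs of the CD3 genes, the higher number of T cell genes outside follows in part from the rule. The gate did not remove all such cells: 15 gated cells had 5 or more of the 18 T cell genes, 8 of them Siglech-positive, 3 C1qb-positive and 4 triple-negative. Whether barcodes with RNA of both kinds were joined cells or shared droplets was not tested.

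**Figure D1:**
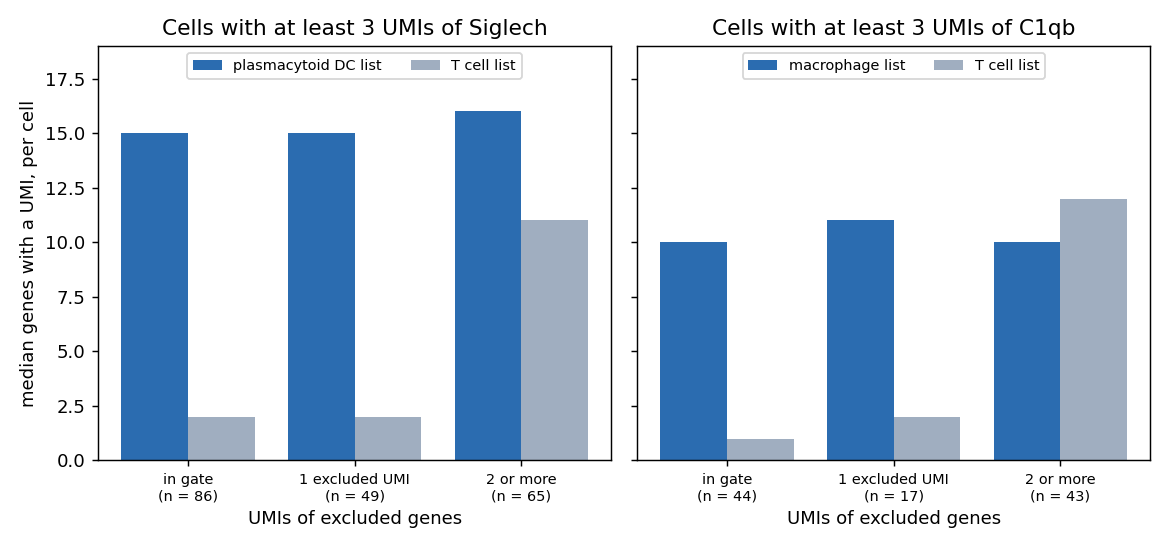
Median number of listed genes with a UMI per cell, for cells with at least 3 UMIs of Siglech (left) or C1qb (right), in the gate, with 1 UMI of the excluded genes, or with 2 or more. T cell genes (grey) stand at 1 to 2 in the first pair of classes and at 11 to 12 in the third, while plasmacytoid or macrophage genes (blue) stand at 10 to 16 in all.

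The Siglech-positive cells were the largest subset, 45.6% of the gate (38.2 to 53.1%), before the C1qb-positive at 31.9% (25.2 to 39.2%), the Lyz2-only at 18.7% (13.3 to 25.1%) and the 7 remaining at 3.85% (1.56 to 7.76%). Siglech ran from 1 to 42 UMIs per Siglech-positive cell with a median of 17, C1qb from 1 to 119 with a median of 5 in its subset, and Lyz2 from 1 to 848 with a median of 60 in Lyz2-only cells. The combinations were few: 76 cells had Siglech alone, 45 had C1qb with Lyz2, 34 Lyz2 alone, 11 all 3, 7 Siglech with Lyz2, and 1 each C1qb alone and C1qb with Siglech. Depth differed between subsets, with a median of 8779 UMIs per Siglech-positive, 2703.5 per C1qb-positive and 7267.5 per Lyz2-only cell, against 6038 per T cell. Mitochondrial UMIs had a median of 5.36%, 3.45% and 0.961% in the same subsets, and with a limit of 5% the Siglech-positive share was 28.7% and the Lyz2-only share 29.6%. Requiring 2 UMIs of Tyrobp and of Cst3 left all 83 Siglech-positive cells and 42 C1qb-positive cells.

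**Figure D2:**
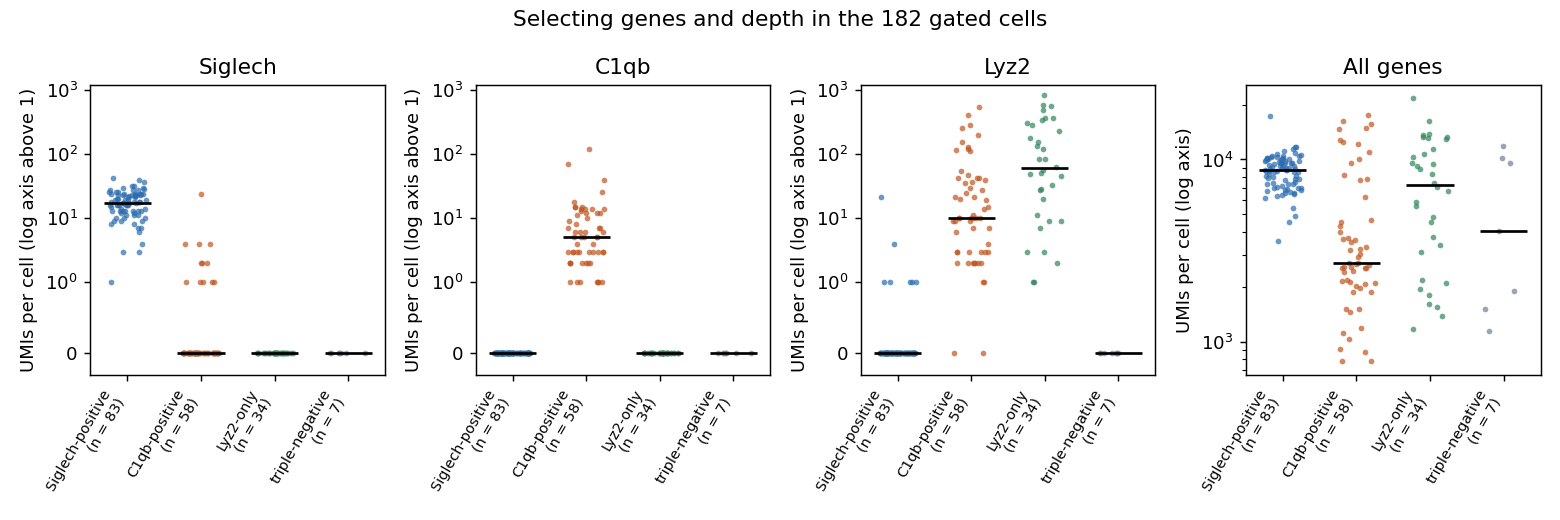
UMIs per cell of Siglech, C1qb and Lyz2 (axis logarithmic above 1) and of all genes (logarithmic axis) in the 4 subsets; each point is a cell and each bar a median. The zeros follow from the selection, and the C1qb-positive cells were the shallowest of the 3 main subsets, with a median of 2703.5 UMIs.

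The Siglech-positive cells carried a nearly uniform plasmacytoid program. Of the 16 other genes in the plasmacytoid list, at least 10 had a UMI in 82 of 83 cells, with a median of 15. Bst2, the interferon-induced tetherin that marks these cells in mice, was at 5379 CPM (5211 to 5551) against 192 CPM in T cells, and Irf8, a transcription factor of dendritic cell development, at 3715 CPM against 32 CPM. Ly6d, a surface protein of lymphoid progenitors and plasmacytoid cells, was at 4688 CPM (81 of 83 cells), and Tcf4 at 1818 CPM (83 of 83). Ccr9, a gut-homing chemokine receptor, had a UMI in 82 cells, Runx2, a transcription factor, in 78, and Bcl11a, another, in 79. Some were close to absent from the other main subsets, such as Runx2 with 1 UMI in C1qb-positive and 1 in Lyz2-only cells, while Bst2 was at 712 and 473 CPM and Irf8 at 606 and 302 CPM there. Ctsl, a lysosomal protease, stood at 1801 CPM against 269 and 134 CPM in C1qb-positive and Lyz2-only cells, and Tlr7, the RNA-sensing receptor, at 89 against 7 and 11 CPM. The remaining cell with fewer genes had 3 Siglech UMIs, 3 plasmacytoid genes, 11 macrophage genes and 21 of the subset's 30 Lyz2 UMIs. The other way round, 1 C1qb-positive cell had 24 Siglech UMIs, 15 plasmacytoid genes, 1 C1qb UMI and no other macrophage gene, and it held 51.1% of the Siglech UMIs of that subset.

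RNA of Cd4 and Cd44, whose proteins the sort used, was detected in the Siglech-positive cells. Cd4 had a UMI in 74 of 83 cells and Cd44, a hyaluronan receptor of activated lymphocytes, in 77, and 70 cells had both. Summed Cd4 was 311 CPM (272 to 355) against 158 CPM (155 to 161) in T cells, 15 CPM in B cells, 117 CPM in C1qb-positive and 11 CPM in Lyz2-only cells. With each cell thinned to 2000 UMIs, which left out 13 C1qb-positive, 6 Lyz2-only and 209 T cells, a Cd4 UMI was in 41.0% of Siglech-positive, 28.3% of T, 26.7% of C1qb-positive, 3.6% of Lyz2-only and 2.7% of B cells. Trbc2, a constant gene of the T cell receptor that these cells should lack, was at 47 CPM in Siglech-positive, 131 in C1qb-positive and 65 in Lyz2-only cells against 1995 CPM in T cells. Siglech-positive cells had more Cd4 than T cells, at a Trbc2 level far under theirs. They were not alone in having Cd4. In 48 C1qb-positive cells with few monocyte genes, described below, it was at 182 CPM. That was 27 UMIs, 6 of them in 1 cell with 24 Siglech UMIs. After thinning, Cd4 was in 12 of 35 of them. In the other 10 C1qb-positive cells it was at 45 CPM, and after thinning in 0 of 10. The Trbc2 contrast follows in part from the rule. Gated cells had 0 UMIs of the CD3 genes, and the reference T cells had at least 2. Of the 74 cells with Cd4, 60 had at least 1 of the 18 listed T cell genes and 14 had none. Whether some of this Cd4 was RNA of T cells was not tested. Cd44 was at 373 CPM (329 to 420) in Siglech-positive cells against 67 CPM in T cells. At unequal depth, a Cd44 UMI was also in 20 of 34 Lyz2-only, 15 of 58 C1qb-positive and 3749 of 11479 T cells. The CD8 genes were split among the same cells, with Cd8a in 42, Cd8b1 in 49, either in 63 and both in 28 of 83, while Cd8a had 0 UMIs in C1qb-positive and Lyz2-only cells.

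Most C1qb-positive cells carried many macrophage genes, with at least 5 of the 23 others on the list in 53 of 58 cells. The Lyz2-only cells reached 5 in 13 of 34, and 10 of the 58 had monocyte genes as well, as described below. All 3 C1q chains, which assemble into the first component of the classical complement pathway, had a UMI in 46 gated cells. C1qa was at 1810 CPM (1656 to 1974) and C1qc at 1063 CPM (946 to 1190) in this subset, and both at 23 CPM or less in the Siglech-positive and Lyz2-only cells. Marco, a scavenger receptor for bacteria, was at 1888 CPM in 38 cells, Cd209b, a C-type lectin of medullary and marginal macrophages, at 1229 CPM in 39, Timd4, a receptor for phosphatidylserine on dying cells, at 429 CPM in 35, and Cd5l, a secreted macrophage survival protein, at 638 CPM in 31. Chemokine genes were prominent: Ccl8, a ligand for monocyte and T cell receptors, reached 5766 CPM (5490 to 6053) in 44 of 58 cells, and Ccl12, Cxcl9 and Cxcl10 reached 772, 1133 and 2019 CPM. The Cxcl9 level rested on few cells. In the 10 cells with monocyte genes, 4 held 201 of its UMIs, 118 of them in 1 cell. In the other 48 it had 119 UMIs in 19 cells, or 802 CPM. The 19 listed chemokines summed to 10552 CPM in C1qb-positive, 1989 in Lyz2-only and 36 in Siglech-positive cells. Apoe, a lipid carrier, was at 2873 CPM and Hmox1, which breaks down haem, at 981 CPM, against 108 and 15 CPM in Siglech-positive cells. Apoe was not particular to this subset, being at 3087 CPM in 19 of the Lyz2-only cells. Within the subset it was at 888 CPM in the 10 cells with monocyte genes and 4666 CPM in the other 48. Siglech was in 12 of the 58 cells, with a median of 2 UMIs.

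The C1qb-positive cells fell into a pair of ranges by the number of listed monocyte genes. The ranges were set after the values were seen and are not types: no cell had 7 listed monocyte genes, 10 cells had 8 to 13, and 48 had 0 to 5. The 48 include the cell with 15 plasmacytoid genes given above and another with no macrophage gene beyond C1qb. The 10 cells were deep, with a median of 13545.5 UMIs against 2549, and had a median of 11 monocyte and 9 macrophage genes. All 10 had Ccr2 and 9 had Ly6c2, while Cd5l and Timd4 had 0 UMIs and Marco 4 UMIs in 2 cells. In the 48 cells Marco was in 36, Timd4 in 35, Cd5l in 31 and Ccl8 in 41, with 97.6% of the Marco and 97.2% of the Ccl8 UMIs of the gate, and Ccr2 was in 3. H2-Aa, a class II chain that presents antigen to CD4 T cells, was at 6357 CPM in the 10 cells and 1106 CPM in the 48. The same cells, still divided by their full counts, were also thinned to 2000 UMIs, which left out 13 of the 48. The 10 cells then had 6 to 8 monocyte genes and the other 35 had 0 to 5. The ranges were not set anew at that depth, so these values describe the split and do not test it. Marco was then in 0 of 10 and 28 of 35 cells, and Ccr2 in 10 of 10 and 1 of 35.

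**Figure D3:**
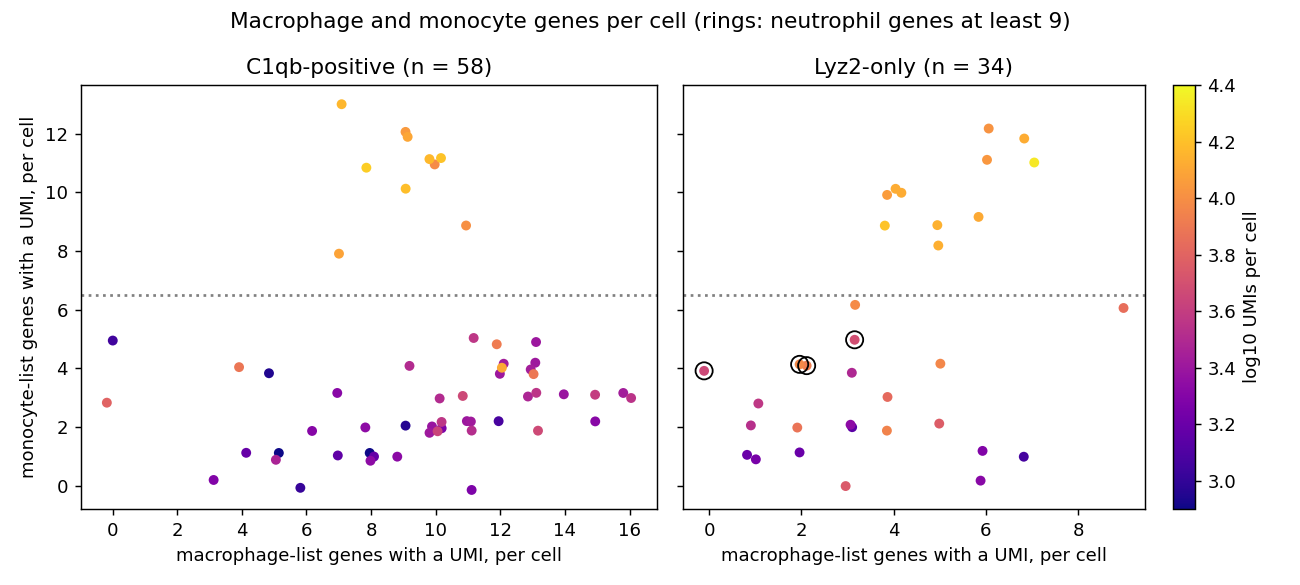
Number of listed monocyte genes (Lyz2 left out) against macrophage genes (C1qb left out) with a UMI, per C1qb-positive cell (left) and Lyz2-only cell (right), coloured by depth; points are jittered. Cells above the dotted line have 8 or more monocyte genes, 10 on the left and 11 on the right, and rings mark the 4 cells with 9 or more neutrophil genes.

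The Lyz2-only cells were divided in 3 by gene counts, again after the values were seen. In 4 cells 9 to 13 of 15 neutrophil genes had a UMI, and these 4 held 98.4% of the S100a8, 99.5% of the S100a9 and 98.1% of the Retnlg UMIs of the gate. S100a8 and S100a9 encode the calprotectin pair of granulocytes and Retnlg a secreted resistin-like protein. A further 11 cells had 8 to 12 monocyte genes, with Ly6c2 and Ccr2 in 11 of 11 and a median of 13297 UMIs. Lyz2 was at 26615 CPM in them and Chil3, a chitinase-like protein of Ly6C-high monocytes, had 154 UMIs in 7 cells, 101 of them in 1 cell. Ly6c2, at 2976 CPM in these 11 cells, was not particular to them. The 82 Siglech-positive cells with under 7 monocyte genes held 77.8% of its UMIs in the gate, at 3662 CPM. The last 19 cells had a median of 3374 UMIs, with a median of 5 of 15 genes of mature migratory dendritic cells (at most 7) and 3 macrophage genes. These counts name no cell type. The migratory list includes Ccl17 and Ccl22, which had no UMI in the gate. Of its 13 tested genes, 2 were at least 4-fold higher in the gate than in all other cells and 1 lower, against 2.96% and 0.972% of all genes. Of the 19 cells, 16 had Apoe, 18 Aif1, a cytoskeletal gene of macrophages, and 11 each Cd63 and Cxcl9. Cd5l was at 0 in them, Timd4 in 7 and Ccr2 in 1. Their median mitochondrial share was 0.589%, against 3.67% in the 11 cells.

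The 7 cells without Siglech, C1qb and Lyz2 had little in common. In 1 cell of 1900 UMIs 10 of 15 genes of mature migratory dendritic cells had a UMI, with 5 of Fscn1, an actin-bundling protein, and 1 of Ccr7. In another, of 11883 UMIs, 9 of the 15 had a UMI beside 7 UMIs of the B cell gene Ms4a1. 3 cells had Cxcr6, Cd160, Klrb1b, Cd7 and Id2, genes of natural killer and innate lymphoid cells, and 1 of these held 35 UMIs of Il22, a cytokine of barrier defence. These 3 cells had 7, 7 and 9 of the T cell genes. Another, of 1511 UMIs, held 8 UMIs of Retnlg. The last, of 1144 UMIs, had 21 UMIs of Cst3, 13 of Cd74, 4 of H2-Aa and 4 of the listed genes of type 1 conventional dendritic cells.

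Genes of conventional dendritic cells were mixed. On the fixed lists 6 of 12 tested genes of type 2 cells (median log2 ratio 1.96) and 5 of 13 of type 1 cells (0.97) were at least 4-fold higher in the gate than in all other cells on the log2(CPM + 10) scale, against 2.96% of all genes. Several of them also belong to other myeloid cells: Clec10a, a lectin with a log2 ratio of 4.26, was at 464 CPM in 72 of 83 Siglech-positive cells, and Sirpa, a receptor of phagocytes, at 308 CPM in C1qb-positive cells. Other genes, chosen after their values were seen, were scarce. Xcr1, the chemokine receptor of type 1 cells, had 3 UMIs in 182 cells, Zbtb46, the transcription factor shared by conventional cells, 2, and Cd209a, a lectin of type 2 cells, 20, all in Siglech-positive cells. Cd207, Ccl17 and Ccl22 had 0 UMIs, where a floor of 3 counts equals 2.30 CPM in the gate. Ccr7, which guides mature cells into the node, had 12 UMIs. Clec9a, a receptor for dead cells that is known in type 1 and plasmacytoid cells, had 47 UMIs in 26 cells, all Siglech-positive. Flt3, the growth factor receptor of dendritic cells, had 66 of its 69 UMIs in the same subset. Most of the listed type 1 sum, 3989 CPM in Siglech-positive cells, is Irf8, which the plasmacytoid list also holds.

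Against all other cells, 365 of 12340 genes with 50 UMIs or more were higher in the gated cells by 4-fold or more on the log2(CPM + 10) scale, which is 2.96% of genes, and 120 were lower by as much, or 0.972%. The rule used this contrast for its genes, and each list holds genes picked for such cells, so the counts describe the gate. All 17 plasmacytoid genes were higher, with a median log2 ratio of 4.43 against -0.03 over all genes. Of the macrophage list 14 of 16 were higher (median 3.55), of the complement list 9 of 11 (2.85), of C-type lectins 11 of 15 (2.73), of Fc receptors 6 of 7 (2.22) and of ITAM adaptors and their receptors 9 of 15 (2.17). Class II presentation had 8 of 14 higher, H2-Aa by 3.25, and class I none of 12. All 18 T cell genes were lower (median -3.47), and of 20 cell cycle genes 2 were lower and none higher (median -1.61). The highest ratios belonged to Lyz2 (5.40), Tyrobp (5.35) and Siglech (5.28), all from the rule. Next were Cox6a2 (5.19), which encodes a mitochondrial subunit and is on the plasmacytoid list, Ccl8 (5.12) and Fcer1g (5.11). Fcer1g, the gamma chain of Fc receptors, had a UMI in 173 of 182 cells.

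**Figure D4:**
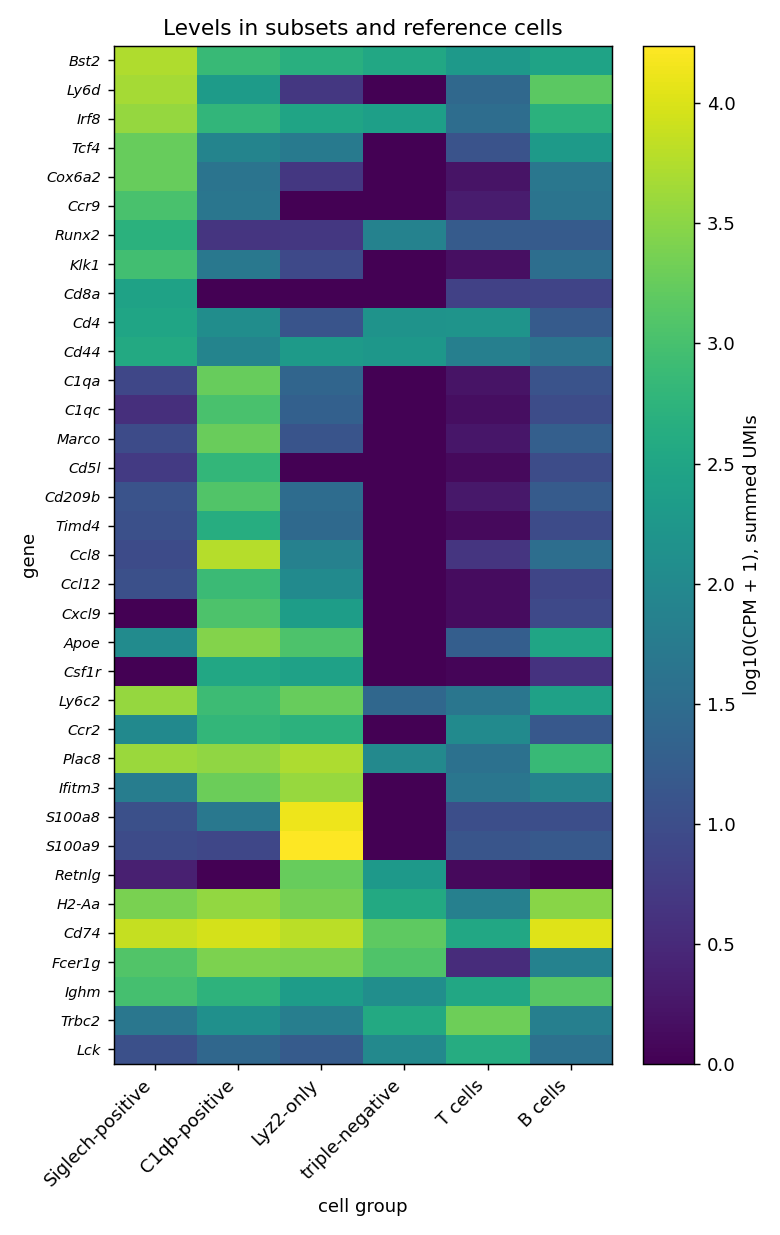
Levels of 35 genes as log10(CPM + 1) of summed UMIs in the 4 subsets and in T and B cells of the same library; the triple-negative column is 7 cells. The block from Bst2 to Klk1 is brightest in Siglech-positive cells, that from C1qa to Ccl12 in C1qb-positive cells, and S100a8 to Retnlg in Lyz2-only cells.

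Genes by which these cells instruct T cells differed between subsets. Cd86 and Cd40, costimulators of T cells, were at 103 and 110 CPM in C1qb-positive, 76 and 65 in Lyz2-only and 4 and 4 in Siglech-positive cells. Of 12 tested costimulation genes and 9 tested Tfh cues none passed 4-fold in either direction, which at the shares over all genes, 2.96% higher and 0.972% lower, is near the background. Il6, a cytokine that favours Tfh cells, had 0 UMIs in the gate. Cd74, the invariant chain of class II, was at 9089 CPM in C1qb-positive, 7237 in Siglech-positive and 6405 in Lyz2-only cells, against 347 CPM in T cells. The C1qb-positive level rested on the 10 cells with monocyte genes, at 16242 CPM, while the other 48 were at 2623 CPM, under the Siglech-positive cells. In Lyz2-only cells the 4 with neutrophil genes were at 73.6 CPM. Fc receptors for IgG were in phagocytes: Fcgr1 was at 347 and 183 CPM and Fcgr3 at 266 and 321 CPM in C1qb-positive and Lyz2-only cells, with 0 UMIs of either in Siglech-positive cells, as for Csf1r, the receptor of the macrophage growth factor. Il1b, an inflammatory cytokine, followed the same division, at 259, 221 and 0 CPM. The neutrophil list, which holds Il1b, had 168 UMIs in C1qb-positive cells. Of these, 77 were in 1 of the 10 cells with monocyte genes, and any of the other 48 had at most 18. The Il1b value of the subset is thus not a level of the 48. Sostdc1 had 4 UMIs in 4 gated cells, or 3.07 CPM, against 13 CPM in T cells, and 0 of 13 tested Wnt and BMP genes passed 4-fold, again near the background shares.

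RNA of lymphocytes was counted in the gated cells too. The 18 T cell genes summed to 322 CPM in the gate against 7926 in T cells, 275 in Siglech-positive, 372 in C1qb-positive, 218 in Lyz2-only and 1493 in the 7 remaining cells. The B cell list summed to 1556 CPM, mostly immunoglobulin: Ighm, the IgM heavy chain, was in 83 of 83 Siglech-positive cells at 967 CPM (897 to 1042), and Igkc, the kappa chain, in 76. T cells also carried them, with Ighm in 7702 of 11479, and thinned to 2000 UMIs Ighm was in 78.3% of Siglech-positive, 66.7% of C1qb-positive, 32.1% of Lyz2-only and 41.0% of T cells. Leaving out gated cells with at least 3 UMIs of the T or of the B cell list, as planned, left 20 cells, 0 of them Siglech-positive. Without Ighm, Ighd, Igkc and Iglc2 in the B cell list, an alternative chosen after seeing the data, 127 cells were left, 53 Siglech-positive, 46 C1qb-positive and 25 Lyz2-only. The share of immunoglobulin UMIs that came from free RNA was not tested.

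The leading genes of the gate were looked up in the bulk Tfr libraries, to see whether their RNA was in sorted cells of another kind. In bulk, fewer cells of a type and less RNA per cell cannot be told apart. Sostdc1 itself had 458 counts where the label reads KO and 4 where it reads WT, which goes against the labels, and directions are stated for the labelled libraries only. Totals were 27777625 and 18076300 counts. In that order Siglech had 16 and 17 counts, C1qb 29 and 29, C1qa 41 and 31, and Marco 49 and 21, all under 2 CPM in either. These genes were thus close to the lower limit of 1 CPM in both libraries, but other genes named above were not. Apoe was at 12.4 and 11.8 CPM and Bst2 at 42.5 and 131 CPM. Cd209b had 126 against 25 counts, 3.28-fold (2.12 to 5.26). Among 9 tested leading genes of C1qb-positive cells, it alone was higher by 2-fold or more and 0 were lower. Of 14082 genes tested, 345 (2.45%) were higher by 2-fold or more and 1236 (8.78%) lower by as much in the library labelled KO, on the log2(CPM + 1) scale. Of the 30 genes that led the gate, 29 were in the table and 19 had at least 1 CPM in either library. 3 of the 19 were higher. Lyz2 had 719 against 159 counts, 2.94-fold (2.47 to 3.52), Plac8, a gene of myeloid cells and of activated lymphocytes, 949 against 84, 7.35-fold (5.88 to 9.30), and Ly6c2 676 against 96, 4.58-fold (3.70 to 5.74). Ctsh, a lysosomal protease, was lower, with 110 against 166 counts, 0.431-fold (0.336 to 0.552). The median log2 ratio of the 19 genes was 0.03, against -0.09 over all genes. Tyrobp had 47 against 8 counts, a ratio of 3.82 (1.79 to 9.37) that was 0.90 on the log2(CPM + 1) scale, and H2-Aa 541 against 64, 5.50-fold (4.24 to 7.24). Of other class II genes, H2-Eb1 was at 2.25, H2-Ab1 at 1.48, H2-DMa at 1.29 and Cd74 at 0.883, and 3 of 13 tested class II genes were higher by 2-fold or more (median log2 ratio 0.39). In the single-cell library T cells had Lyz2 at 9, Plac8 at 38 and H2-Aa at 69 CPM. Within the gate, 82 Siglech-positive cells held 53.7% of the Plac8 and 77.8% of the Ly6c2 UMIs. Which cells the bulk counts came from was not tested.

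**Figure D5:**
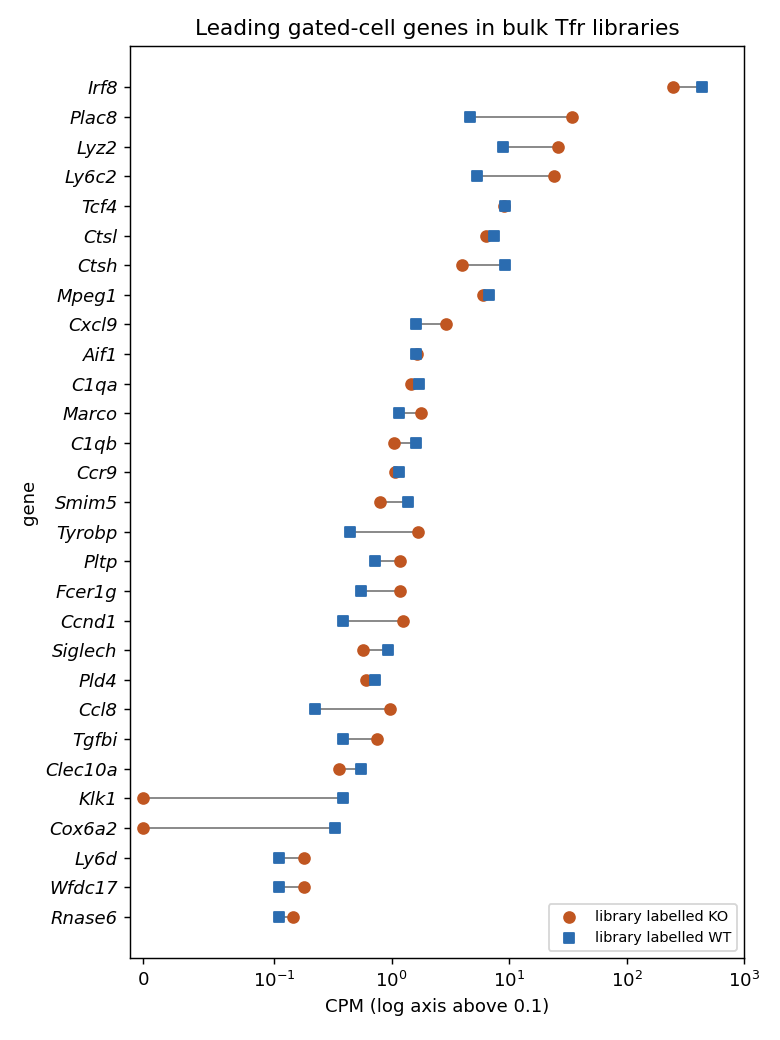
CPM of the 29 leading gated-cell genes found in the bulk table, in the Tfr library labelled KO (circles) and the one labelled WT (squares), on an axis logarithmic above 0.1. Plac8, Lyz2 and Ly6c2 stand apart between the libraries, and most others lie under 10 CPM in both.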

How the data were processed

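RNA was measured in sorted mouse lymph node cells, and 3 of 11 samples were used: 1 single-cell library and the bulk Tfr libraries labelled KO and WT. The members and all gene lists were chosen with earlier results of these data known. Single-cell values are deposited as a matrix of UMI counts. Its header, per the file headers, names Cell Ranger 3.1.0, and the submitters' processing notes name version 2.1.0. Per the labels, the library used version 2 of the 10x Genomics 3′ kit. The deposited bulk table holds whole-number counts per gene. It also holds the authors' CPM, fold ratio, log2 fold change and p-value columns, which were not used, and for its counter, build and strand setting nothing is given in the sources used here, while the notes list mm9 and mm10 with no role. A number in the name of the WT column is missing from the title, so the match rests on the fact that no other WT Tfr RNA sample is labelled.

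The filters took 835 of 15002 barcodes for having fewer than 500 genes and another 977 for a mitochondrial share of 10% or more. UMIs were summed over cells and scaled to CPM here. Reference T cells (11479) had at least 2 UMIs of the Cd3 genes and none of Tyrobp, and reference B cells (505) had Cd79a and no Cd3, with Tyrobp in 72 of them. Ratios used log2(CPM + 10) and at least 50 UMIs over all cells for single cells, and log2(CPM + 1) and at least 1 CPM in either library for bulk. Thinning drew 2000 UMIs per cell. No cell was removed as a doublet in the main values, and Scrublet scores (in scanpy 1.11.5), with the highest 10% left out, served as an alternative. Named genes were the rule genes with Cd4, Cd44 and Sostdc1, the 25 highest in the gate with a UMI in at least 20% of cells, the 12 highest per subset and the 6 highest per list. Hmox1, Flt3, Xcr1, Cd209a, Zbtb46, Cd207, Ccr7, Fscn1, Ccl17, Ccl22, Il6, Ighm, Igkc and Ctsh fall outside that rule and were chosen after their values were seen. T cell receptor and immunoglobulin segments, predicted genes, small RNAs, pseudogenes, Xist and Y-linked genes were left out of the ranking. Intervals are exact Poisson for CPM, Clopper-Pearson for shares and conditional binomial for bulk folds; bulk reads are not independent molecules. The ratios were tested on simulated data. RefSeq windows were found for 10 of 13 genes looked up. The other 8 samples were not analysed here.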

Additional observations from a re-analysis of the deposited data

How the results depend on the processing

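The count of genes at least 4-fold higher in the gated cells, 365, lay between 360 and 404 under the cell filters, doublet and list alternatives, the minimum of UMIs and the mean of CPM per cell; with a pseudocount of 1 it was 862 and with 50 it was 105. The gate held 1.14% of cells with 2 UMIs of Tyrobp and Cst3 and 2.06% with 1 excluded UMI allowed. It held 0.154% without cells of 3 T or B list UMIs, leaving shares of 55% C1qb-positive, 0% Siglech-positive, 30% Lyz2-only and 15% triple-negative. Added after seeing the data, the T list alone gave 0.982%, the B list alone 0.169% (50%, 0%, 31.8% and 18.2%), and both without immunoglobulin genes 0.967%. Siglech-positive cells were 54.2% with 1000 genes, 28.7% with under 5% mitochondrial UMIs (Lyz2-only 29.6%) and 55.0% with 2 UMIs of Tyrobp and Cst3. C1qb-positive cells were 23.1% when thinned to 2000 UMIs and 23.6% to 1000 (triple-negative 10.7%). Siglech, Cox6a2, Ccr9, Pltp, Klk1, Smim5 and Tcf4 turned lower only without cells of 3 T or B list UMIs, at log2 ratios of -1.62, -1.45, -1.15, -1.12, -1.13, -0.65 and -0.35, and with the B list alone at -1.62, -1.45, -1.15, -0.076, -1.13, -0.65 and -0.21; these settings leave no Siglech-positive cell. In bulk, 5 leading genes were higher with a pseudocount of 0.1, and 0 were lower with a pseudocount of 5 or with trimmed-mean scaling, where the median log2 ratio of all genes moved from -0.09 to 0.06. Doublet scores removed 10 gated cells. With the single-cell library and each bulk group at 1 sample, leaving out a replicate was not possible. No paired analysis was possible because each group had 1 library. Under 2000 UMIs lay 13 of 58 C1qb-positive and 3 of 7 triple-negative cells.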

Other observations

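Some listed genes not described above were found in the Siglech-positive cells. Cdh5, the cadherin of endothelial junctions, had a UMI in 59 of 83 of these cells at 167 CPM, against 27 of 11479 T cells, while 7 of the 13 listed stromal and endothelial genes had 0 UMIs in the gate. Mzb1, a chaperone of antibody-secreting cells, was at 306 CPM in 59 cells against 44 CPM in T cells and 860 CPM in B cells, whereas Jchain, the joining chain of secreted IgM, was at 11 CPM against 119 and 1401 CPM. Cd7, a surface protein of lymphoid cells, was in 61 of the 83 cells at 373 CPM, against 28 CPM in C1qb-positive and 19 CPM in Lyz2-only cells, and at 896 CPM in the 7 triple-negative cells. Lair1, an inhibitory collagen receptor, was in 82 at 621 CPM, against 92 and 46 CPM in C1qb-positive and Lyz2-only cells. This grouping was made after the values were seen.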
